A study of Mus musculus with 6 samples.

Results

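The cytochrome P450 genes of the Cyp2 family and of the Cyp3a subfamily were compared between 3 Sirt5-/- and 3 Sirt5+/+ mouse livers. They were taken by symbol, as every gene named Cyp2 plus a letter and a number or Cyp3a plus a number, leaving out Cyp2c70, and came to 54 of the 55536 genes in the table. All 6 livers came from male C57BL/6 mice treated at 4 weeks of age. Each was given 50 µg of PB[CMV-myc-YAP5SA]DS, a piggyBac plasmid for myc-tagged YAP5SA (an active form of YAP, the Hippo pathway effector), together with the Act-PBase transposase plasmid (10 µg). The labels name the route HDI, the usual short form of hydrodynamic injection, which carries DNA mainly into hepatocytes, and the livers were taken 20 days later. The CMV promoter is not specific to hepatocytes, and both genotypes carried the transgene. A Sirt5-/- mouse lacks SIRT5, a mitochondrial enzyme that removes acyl groups from lysines. Nothing in the labels ties each liver to a separate animal, so the p-values rest on the spread among these samples, which may be technical.

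Enzymes of these families sit in the endoplasmic reticulum, carry a haem group and use electrons passed on by the reductase Por to oxidise drugs, toxins, steroids and fatty acids. In the mouse they are made chiefly by hepatocytes, many of them by those around the central vein, and a number of them differ between males and females. The genes lie in tandem clusters of close copies, and several are switched on by the xenobiotic receptors CAR (Nr1i3) and PXR (Nr1i2).

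Library totals ran from 19307808 to 24330797 estimated read counts, and 36 to 42 of the 54 genes had a count in a given library. Sirt5 had 14, 45 and 18 counts in the Sirt5-/- libraries, against 352, 441 and 96 in the Sirt5+/+ libraries, and fell by 4.13 ± 0.38 (log2, SE; edgeR, adjusted p = 0.00146). The share of reads on mitochondrial genes was 40.8, 21.5 and 17.5% for Sirt5-/- replicates 1, 2 and 3, against 7.20, 6.58 and 46.4% for Sirt5+/+ replicates 1, 2 and 3. Sirt5+/+ replicate 3 thus stood apart from its own group, and values that it moves by over 1.5 times are also given without it. Hepatocyte markers were present in all libraries but lower in Sirt5-/- livers: 14 of 18 fell, and their mean log2 CPM was 10.02, 9.71 and 9.26, against 11.94, 11.54 and 11.29 in Sirt5+/+ livers. CPM are counts scaled to library size, here with TMM factors, and a floor of 3 counts equalled 0.0827 to 0.393 CPM. In bulk tissue, fewer hepatocytes and less RNA per hepatocyte cannot be told apart.

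Most of the measurable genes were lower in Sirt5-/- livers. Of the 54 genes, 11 had no count in any library, 10 were counted but too low to test, and 33 were tested. Of these 33, 25 fell, 1 rose (Cyp2s1) and 7 did not pass at an adjusted p of 0.05 (edgeR quasi-likelihood F test, adjusted over 14799 genes). Over all genes tested, 34.5% were called, 17.1% as lower and 17.4% as higher. The median log2 change of the 33 genes was -2.0, against -0.08 for all genes tested. The 25 genes that fell had no overlap between genotypes, and the riser had none either, while 24.0% of all genes tested lay wholly lower and 25.8% wholly higher. The summed level of the 54 genes was 3308, 3291 and 2510 CPM in Sirt5-/- livers and 22337, 15903 and 10118 CPM in Sirt5+/+ livers, so the lowest Sirt5+/+ liver lay well above the highest Sirt5-/- liver. This sum averaged 3036 ± 456 CPM in Sirt5-/- livers and 16119 ± 6113 CPM in Sirt5+/+ livers (SD, n = 3 each). The scaling matters to the count: with library totals in place of TMM factors 7 genes fell (Cyp2a4, Cyp2c29, Cyp2d26, Cyp2d40, Cyp2e1, Cyp2f2 and Cyp2j5), 2.20% of all genes tested fell, the median of all genes moved to 0.60, and that of the members was -1.38. Cyp2s1 rose under both scalings. Without Sirt5+/+ replicate 3, 1 of the 25 lost its call (Cyp2c37), with 23.4% of all genes tested then lower and 25.6% higher. Leaving out Sirt5-/- replicate 1, 2 or 3 took the lower calls over all genes from 2525 to 1758, 1142 and 1090. Calls of single members lost that way, given below, stand beside this drop.

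Summed by subfamily, which keeps reads shared by close copies together, the levels were lower in Sirt5-/- livers for all but the Cyp2b genes. The Cyp2c genes summed to 1159, 906 and 724 CPM in Sirt5-/- livers and 3330, 2924 and 3485 CPM in Sirt5+/+ livers, a log2 ratio of means of -1.80 and the smallest difference of the large subfamilies. The Cyp3a genes summed to 250, 335 and 252 CPM in Sirt5-/- livers and 1044, 1345 and 754 CPM in Sirt5+/+ livers (-1.91). The Cyp2d, Cyp2j and Cyp2a sums stood at -2.19, -2.34 and -2.42. The members outside these subfamilies, chiefly Cyp2e1 and Cyp2f2, summed to 597, 975 and 786 CPM in Sirt5-/- livers and 11440, 6972 and 2138 CPM in Sirt5+/+ livers, at -3.12, or -3.55 without Sirt5+/+ replicate 3. None of these 6 sums overlapped between genotypes. The Cyp2b sum, 1.75, 1.87 and 1.60 CPM in Sirt5-/- livers and 1.38, 1.61 and 3.28 CPM in Sirt5+/+ livers, did overlap. Differences between subfamilies were not tested.

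**Figure D1:**
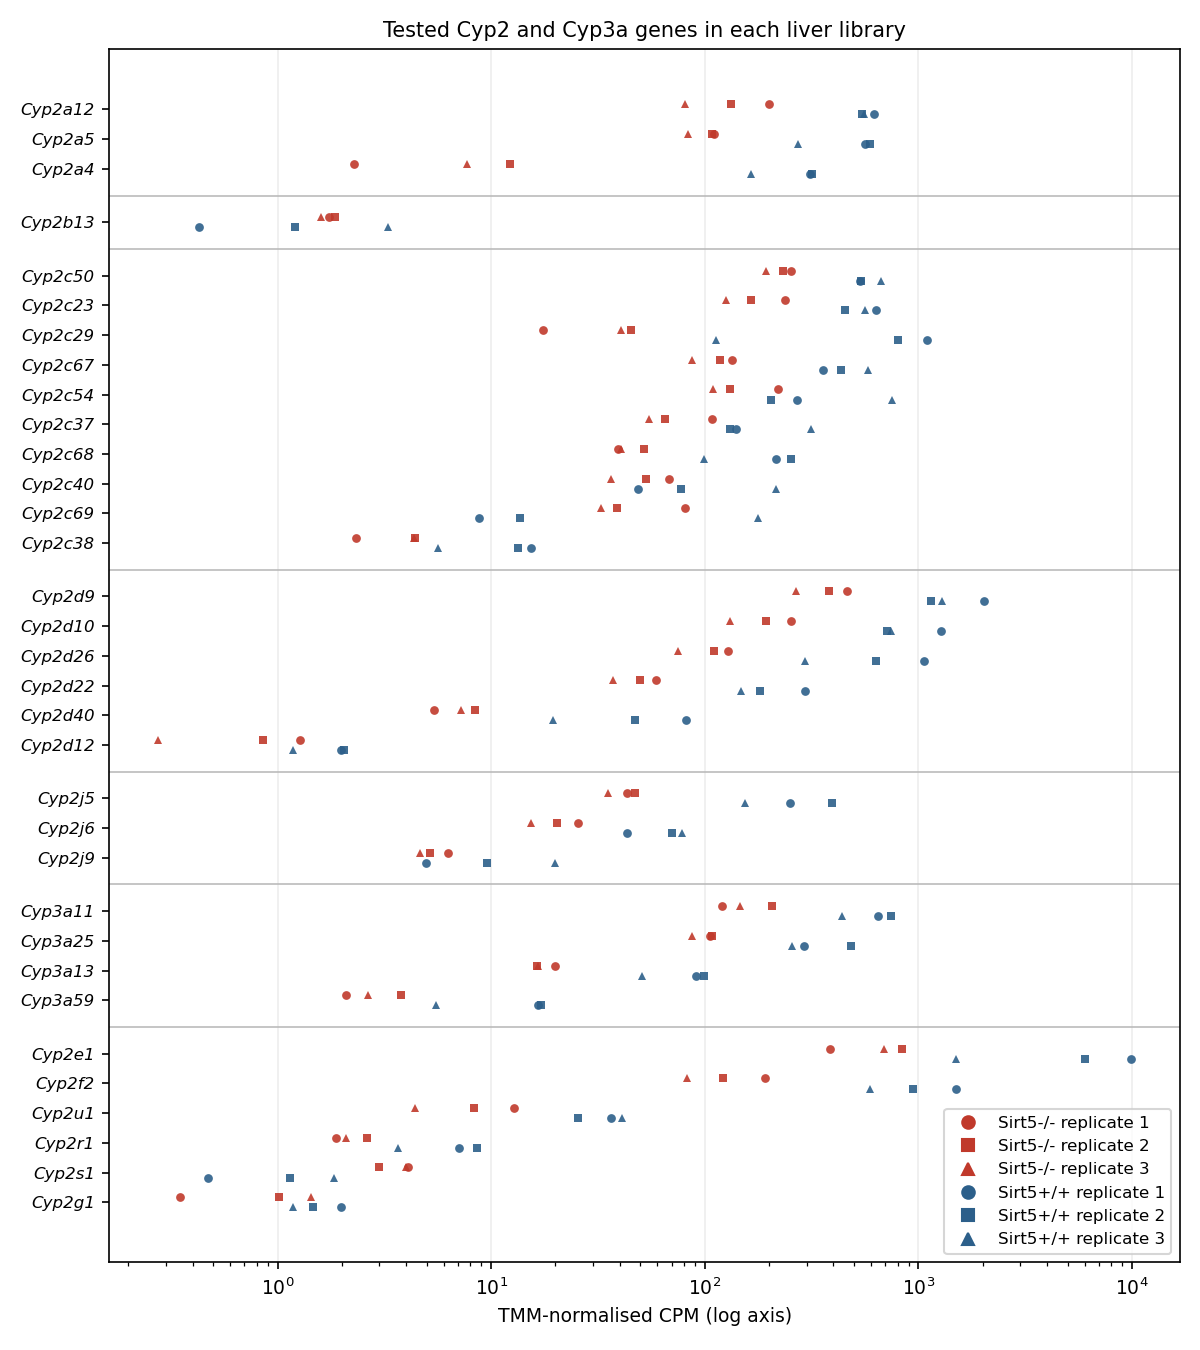
TMM-normalised CPM of the 33 tested genes, on a log axis, grouped by subfamily, with Sirt5-/- libraries in red (drawn slightly higher in each row) and Sirt5+/+ libraries in blue; each point is 1 library. Red points lie left of all blue points for 25 genes, and to the right of all of them for Cyp2s1.

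The Cyp2a genes, whose enzymes hydroxylate coumarin and steroids, showed the largest single fall. All 3 tested members fell, with a median log2 change of -2.24. Cyp2a4, a steroid hydroxylase known as female-biased in mouse liver (ENSMUSG00000074254, chr7:26307169-26315088, plus strand, GRCm38), had 2.27, 12.2 and 7.73 CPM in Sirt5-/- livers, against 310, 316 and 164 CPM in Sirt5+/+ livers. Gm42375 lies on the opposite strand there. Every Sirt5-/- liver was far below every Sirt5+/+ liver, and the gene fell by 5.14 ± 0.65 (log2, SE; edgeR, adjusted p = 0.00188). Cyp2a5, the coumarin hydroxylase (ENSMUSG00000005547, chr7:26835305-26843548, plus strand), had 110, 108 and 83.8 CPM in Sirt5-/- livers and 561, 595 and 273 CPM in Sirt5+/+ livers. The groups did not overlap here either, and Cyp2a5 fell by 2.24 ± 0.38 (log2, SE; edgeR, adjusted p = 0.00384). Cyp2a12, a testosterone hydroxylase and the Cyp2a gene with the highest TPM, had 200, 133 and 80.6 CPM in Sirt5-/- livers and 621, 545 and 558 CPM in Sirt5+/+ livers, with no overlap. It fell by 2.06 ± 0.39 (log2, SE; edgeR, adjusted p = 0.00571).

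Cyp2a4 and Cyp2a5 are near copies, so their reads can be told apart at few places. Their coding sequences differ at 23 of 1482 bases (98.4% identity), and 55.9% of the 31-base words of Cyp2a4 transcripts also occur in Cyp2a5. The stretch of coding bases 580 to 669, where the differences are densest, is shown with the 5 differing bases in capitals (GENCODE M21 transcripts).
Cyp2a4: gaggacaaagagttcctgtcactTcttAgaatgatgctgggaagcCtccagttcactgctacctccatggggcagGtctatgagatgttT
Cyp2a5: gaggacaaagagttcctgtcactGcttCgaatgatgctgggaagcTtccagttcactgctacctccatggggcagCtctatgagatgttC
The ratio of Cyp2a4 to Cyp2a5 counts within a library does not depend on the library scaling. It was 0.0208, 0.113 and 0.0922 in Sirt5-/- livers, against 0.553, 0.531 and 0.600 in Sirt5+/+ livers, so Cyp2a4 was the lower-counted of the pair in all libraries and by far the more so in Sirt5-/- livers. The log2 ratio averaged -4.06 ± 1.33 in Sirt5-/- livers and -0.83 ± 0.09 in Sirt5+/+ livers (SD, n = 3 each). This pair and the other count ratios below were picked after their values were seen and carry no test. The counts of both genes were fractional in all 6 libraries, so the division of shared reads enters both values, and its part in the ratio was not tested.

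The members outside the large subfamilies held the most abundant gene and the only riser. Cyp2e1, which oxidises ethanol and paracetamol around the central vein (ENSMUSG00000025479, chr7:140763739-140774987, plus strand), had 386, 837 and 692 CPM in Sirt5-/- livers and 9896, 5998 and 1498 CPM in Sirt5+/+ livers. Sirt5+/+ replicate 3 lay nearer the Sirt5-/- livers than its own group, yet above all of them. Cyp2e1 fell by 3.18 ± 0.75 (log2, SE; edgeR, adjusted p = 0.0132), but the call was lost when any 1 of the 3 Sirt5-/- libraries was left out, at adjusted p from 0.0542 to 0.0589 (edgeR). Its log2 change was then -3.42 to -2.94, and it was -2.52 without Sirt5+/+ replicate 1. Cyp2f2, which oxidises naphthalene and marks periportal hepatocytes (ENSMUSG00000052974, chr7:27119909-27133660, plus strand), had 192, 122 and 82.8 CPM in Sirt5-/- livers and 1498, 938 and 592 CPM in Sirt5+/+ livers, with no overlap; Gm15883 lies on the opposite strand. It fell by 2.93 ± 0.50 (log2, SE; edgeR, adjusted p = 0.00389). The ratio of Cyp2f2 to Cyp2e1 counts, a periportal over a pericentral gene, was 0.499, 0.146 and 0.120 in Sirt5-/- livers and 0.151, 0.156 and 0.395 in Sirt5+/+ livers. These values overlapped, and the high value of each genotype came from the library richest in mitochondrial reads.

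Cyp2u1, a fatty acid hydroxylase, had 12.8, 8.35 and 4.42 CPM in Sirt5-/- livers and 36.2, 25.5 and 41.1 CPM in Sirt5+/+ livers. The groups were apart, and it fell by 2.01 ± 0.40 (log2, SE; edgeR, adjusted p = 0.00631). Cyp2r1, which hydroxylates vitamin D in the liver, had 1.87, 2.62 and 2.1 CPM in Sirt5-/- livers and 7.07, 8.57 and 3.67 CPM in Sirt5+/+ livers. It fell by 1.56 ± 0.38 (log2, SE; edgeR, adjusted p = 0.0147), a call lost when any 1 Sirt5-/- library was left out (adjusted p from 0.0512 to 0.0708) or without Sirt5+/+ replicate 2 (adjusted p = 0.0572, edgeR). Cyp2g1, known from olfactory tissue, had 0.35, 1.02 and 1.44 CPM in Sirt5-/- livers and 1.99, 1.46 and 1.18 CPM in Sirt5+/+ livers. These overlapped, with a log2 change of -0.71 ± 0.56 (SE; edgeR, adjusted p = 0.363).

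Cyp2s1, a P450 of epithelia outside the liver (ENSMUSG00000040703, chr7:25802475-25816913, minus strand), went the other way. It had 70, 108 and 145 counts in Sirt5-/- livers and 10, 32 and 14 counts in Sirt5+/+ livers, or 4.08, 2.98 and 4.00 CPM against 0.474, 1.14 and 1.83 CPM. All 3 Sirt5-/- livers were above all 3 Sirt5+/+ livers, and the gene rose by 1.75 ± 0.50 (log2, SE; edgeR, adjusted p = 0.0279). The call was lost when any 1 Sirt5-/- library was left out (adjusted p from 0.0705 to 0.102) and without Sirt5+/+ replicate 2 (adjusted p = 0.0811, edgeR). Cyp2s1 overlaps Gm45226 and Gm26707 on the opposite strand, and whether the counting used strand is not given in the sources used here. Of the cholangiocyte markers, an epithelial list, 3 of 8 rose, and none of the 8 was at 0 in all libraries. Their summed level was 754 to 833 CPM in Sirt5-/- livers and 90.5 to 402 CPM in Sirt5+/+ livers. Most of it was Spp1, at 536, 617 and 535 CPM in Sirt5-/- livers and 58.3, 117 and 351 CPM in Sirt5+/+ livers. Spp1 did not pass (log2 change 1.68, edgeR adjusted p = 0.0621). Its log2 change was 2.74 without Sirt5+/+ replicate 3, its high Sirt5+/+ library (edgeR, adjusted p = 0.000534). Krt19, a keratin of bile duct cells, had 34.1, 25.7 and 30 CPM in Sirt5-/- livers and 3.23, 5.36 and 5.24 CPM in Sirt5+/+ livers. The part of these cells in the Cyp2s1 level was not tested.

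The promoters of Cyp2a4, Cyp2c29, Cyp2e1 and Cyp2f2, the 4 genes with the most negative log2 changes, are shown beside that of Cyp2a5, the near copy of Cyp2a4, and that of the riser Cyp2s1, from 70 bases before to 30 bases after the RefSeq start on GRCm38.p6, with a TATAAA match in capitals where there is one. The intervals are chr7:26307122-26307221 for Cyp2a4, chr7:26835269-26835368 for Cyp2a5, chr19:39287015-39287114 for Cyp2c29, chr7:140763749-140763848 for Cyp2e1, chr7:27119885-27119984 for Cyp2f2 (all plus strand) and chr7:25816496-25816595 for Cyp2s1 (minus strand).
Cyp2a4: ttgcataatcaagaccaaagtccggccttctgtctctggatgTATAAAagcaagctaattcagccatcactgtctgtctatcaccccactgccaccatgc
Cyp2a5: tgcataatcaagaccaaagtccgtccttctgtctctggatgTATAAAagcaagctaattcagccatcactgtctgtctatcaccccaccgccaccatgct
Cyp2c29: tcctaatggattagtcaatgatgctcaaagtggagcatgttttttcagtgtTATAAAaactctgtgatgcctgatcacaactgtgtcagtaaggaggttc
Cyp2e1: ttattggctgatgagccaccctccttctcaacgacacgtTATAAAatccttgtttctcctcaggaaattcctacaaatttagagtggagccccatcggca
Cyp2f2: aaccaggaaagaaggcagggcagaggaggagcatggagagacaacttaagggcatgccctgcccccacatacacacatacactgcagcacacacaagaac
Cyp2s1: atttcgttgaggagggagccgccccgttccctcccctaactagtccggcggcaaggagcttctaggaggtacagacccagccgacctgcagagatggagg
Cyp2a4 and Cyp2a5, whose falls were -5.14 and -2.24 on the log2 scale, have promoter windows that are 97.7% identical. Cyp2f2 and Cyp2s1 have no TATAAA in the bases shown. In the full window of 250 bases before to 50 after the start, TATAAA on either strand occurred in 23 of the 46 members with a promoter in the table (50.0%), against 15.7% of 27025 genes. The nuclear receptor element AGGTCA occurred in 37.0% of members and 18.1% of genes, and the loose C/EBP-type motif TTNCNNAA in 50.0% and 44.1%, both strands searched and overlaps between motifs allowed. The C/EBP palindrome TTGCGCAA, the direct repeat of AGGTCA with a 1-base gap and the HNF1-type palindrome occurred in 0 members and in 56, 13 and 3 of the genes. Among tested members, the 15 with TATAAA anywhere in that window had a median log2 change of -2.23 and 13 of them fell. The 12 without it had a median of -1.60 and 9 of them fell, beside 17.1% of all genes lower. A further 6 tested members had no promoter in the table, and 3 of them fell. Close copies share promoter sequence, so the members are not independent here. Both sets spanned a wide range, from -5.14 to -0.38 with TATAAA and from -2.93 to 1.75 without.

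The Cyp2c genes, epoxygenases of arachidonic and linoleic acid and drug hydroxylases, were the largest subfamily and the most uneven. Of 14 genes 10 were tested, 7 fell and 3 did not pass, with a median log2 change of -1.52 and a range from -4.29 to -0.38. Cyp2c29, inducible by phenobarbital (ENSMUSG00000003053, chr19:39269405-39330713, plus strand), had 17.4, 45.1 and 40.4 CPM in Sirt5-/- livers and 1100, 802 and 113 CPM in Sirt5+/+ livers. Sirt5+/+ replicate 3 was again close to the Sirt5-/- livers but above them, and the gene fell by 4.29 ± 0.83 (log2, SE; edgeR, adjusted p = 0.00587). Without Sirt5+/+ replicate 1 its log2 change was -3.70, and without Sirt5+/+ replicate 3 it was -4.74. Cyp2c50, the Cyp2c gene with the highest TPM (ENSMUSG00000054827, chr19:40089688-40113950, plus strand), had 253, 232 and 193 CPM in Sirt5-/- livers and 535, 540 and 666 CPM in Sirt5+/+ livers, with no overlap. It fell by 1.36 ± 0.31 (log2, SE; edgeR, adjusted p = 0.0106), which did not hold without Sirt5-/- replicate 2 (adjusted p = 0.0754) or replicate 3 (adjusted p = 0.0685, edgeR).

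Further Cyp2c calls were lost when single libraries were left out. Cyp2c23, an arachidonic acid epoxygenase, had 237, 165 and 125 CPM in Sirt5-/- livers and 636, 454 and 563 CPM in Sirt5+/+ livers, all apart. It fell by 1.65 ± 0.36 (log2, SE; edgeR, adjusted p = 0.00886), and stood at -1.60 without Sirt5-/- replicate 2 (adjusted p = 0.064) and -1.45 without Sirt5-/- replicate 3 (adjusted p = 0.055, edgeR). Cyp2c38 had 2.33, 4.41 and 4.36 CPM in Sirt5-/- livers and 15.4, 13.4 and 5.63 CPM in Sirt5+/+ livers, and fell by 1.63 ± 0.42 (log2, SE; edgeR, adjusted p = 0.0186). That call was lost when any 1 library except Sirt5+/+ replicate 3 was left out, at adjusted p from 0.0552 to 0.0656 (edgeR), with log2 changes of -1.77 to -1.34. Cyp2c37 had 108, 65.4 and 54.8 CPM in Sirt5-/- livers and 140, 131 and 315 CPM in Sirt5+/+ livers, where Sirt5+/+ replicate 3 was the high one. It fell by 1.36 ± 0.44 (log2, SE; edgeR, adjusted p = 0.0417), and the call was lost without Sirt5-/- replicate 2 or 3 (adjusted p = 0.155 and 0.161), without Sirt5+/+ replicate 1 (adjusted p = 0.0534) and without Sirt5+/+ replicate 3, where the log2 change was -0.78 (adjusted p = 0.0632, edgeR).

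Cyp2c69, a female-biased gene in mouse liver (ENSMUSG00000092008, chr19:39842814-39886799, minus strand), was decided by Sirt5+/+ replicate 3. It had 81.1, 38.8 and 32.7 CPM in Sirt5-/- livers and 8.78, 13.7 and 177 CPM in Sirt5+/+ livers. Its log2 change was -0.38 ± 1.00 (SE; edgeR, adjusted p = 0.799) over all libraries, and 2.23 (edgeR, adjusted p = 0.00256) without that library. Its near copy Cyp2c67 had 134, 118 and 87.4 CPM in Sirt5-/- livers and 357, 433 and 579 CPM in Sirt5+/+ livers and fell by 2.01 ± 0.34 (log2, SE; edgeR, adjusted p = 0.00362). The Cyp2c69 to Cyp2c67 count ratio was 0.607, 0.329 and 0.374 in Sirt5-/- livers, against 0.0246, 0.0316 and 0.306 in Sirt5+/+ livers, so Sirt5+/+ replicate 3 sat just under the Sirt5-/- range. The coding sequences of the pair differ at 34 of 1473 bases, and 64.9% of the 31-base words of Cyp2c69 occur in other genes, above all in Cyp2c40. The densest stretch, coding bases 208 to 297, holds 6 of the differences, in capitals (GENCODE M21 transcripts).
Cyp2c67: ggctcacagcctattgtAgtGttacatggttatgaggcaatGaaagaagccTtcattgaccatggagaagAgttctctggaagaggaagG
Cyp2c69: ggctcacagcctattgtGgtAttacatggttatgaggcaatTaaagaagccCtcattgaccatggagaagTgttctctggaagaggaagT
Cyp2c40, also female-biased, had 67.7, 53.1 and 36.3 CPM in Sirt5-/- livers and 48.6, 77.2 and 215 CPM in Sirt5+/+ livers, overlapping, at -1.11 ± 0.53 (log2, SE; edgeR, adjusted p = 0.141). Without Sirt5+/+ replicate 3, its high library, the log2 change was -0.21 (edgeR, adjusted p = 0.6). With 72.6% of its words in other genes it shared the most of all members, and its level is uncertain for that reason. The remaining Cyp2c genes tested were Cyp2c68, which fell by 2.1, and Cyp2c54 at a log2 change of -1.42 (adjusted p = 0.0746, edgeR), or -0.57 without Sirt5+/+ replicate 3 (adjusted p = 0.187, edgeR).

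Among the Cyp2d genes, relatives of the human debrisoquine hydroxylase, 5 of 6 tested genes fell, with a median log2 change of -2.16. Cyp2d9, the male-biased testosterone hydroxylase (ENSMUSG00000068086, chr15:82433437-82456845, plus strand, overlapping Gm46501, Gm49421, Gm27622 and, on the other strand, Gm49419), had 464, 383 and 266 CPM in Sirt5-/- livers and 2023, 1151 and 1286 CPM in Sirt5+/+ livers, with no overlap. It fell by 2.0 ± 0.42 (log2, SE; edgeR, adjusted p = 0.00789), and missed the threshold without Sirt5-/- replicate 2 (adjusted p = 0.0553) or replicate 3 (adjusted p = 0.0505, edgeR). Cyp2d40 had 5.42, 8.44 and 7.23 CPM in Sirt5-/- livers and 81.8, 47.0 and 19.4 CPM in Sirt5+/+ livers. It fell by 2.81 ± 0.49 (log2, SE; edgeR, adjusted p = 0.00418), the largest fall of the subfamily, and by 2.21 without Sirt5+/+ replicate 1. Cyp2d10, Cyp2d22 and Cyp2d26 also fell, with log2 changes of -2.23, -2.09 and -2.66, while Cyp2d12, at 0.276 to 1.28 CPM in Sirt5-/- livers and 1.18 to 2.04 CPM in Sirt5+/+ livers, did not pass.

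Of the Cyp2j genes, epoxygenases of arachidonic acid, 3 were tested and 2 fell. Cyp2j5, the main member in liver and kidney (ENSMUSG00000052520, chr4:96628773-96664154, minus strand), had 43.0, 47.1 and 35.1 CPM in Sirt5-/- livers and 250, 395 and 154 CPM in Sirt5+/+ livers. The groups lay far apart, and it fell by 2.67 ± 0.39 (log2, SE; edgeR, adjusted p = 0.00252). Cyp2j6 fell by 1.65 ± 0.32 (log2, SE; edgeR, adjusted p = 0.00575). Cyp2j9, known mainly from brain, had 6.30, 5.18 and 4.64 CPM in Sirt5-/- livers and 4.93, 9.61 and 19.9 CPM in Sirt5+/+ livers. These overlapped at -1.08 ± 0.47 (log2, SE; edgeR, adjusted p = 0.108), and the value turned on which Sirt5+/+ library was left out. It was -1.43 without Sirt5+/+ replicate 1 (adjusted p = 0.0296) and -0.39 without Sirt5+/+ replicate 3 (adjusted p = 0.337, edgeR). Unlike the Cyp2a and Cyp2c copies, the tested Cyp2j genes shared at most 3.5% of their words with other genes, and their counts were whole in all libraries.

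All 4 tested Cyp3a genes fell, within the narrow range of -2.20 to -1.78 and a median of -2.07. Cyp3a11, the main drug-oxidising Cyp3a enzyme of mouse liver and a PXR target (ENSMUSG00000056035, chr5:145854426-145879964, minus strand), had 121, 207 and 146 CPM in Sirt5-/- livers and 647, 745 and 441 CPM in Sirt5+/+ livers, with no overlap. It fell by 1.95 ± 0.37 (log2, SE; edgeR, adjusted p = 0.00539). Cyp3a13, with 0.3% of its words in other genes, fell by 2.19, Cyp3a25 by 1.78 and its near copy Cyp3a59 (97.5% coding identity) by 2.20. In the Cyp2b subfamily only Cyp2b13, female-biased in mouse liver, could be tested, at 1.75, 1.85 and 1.60 CPM in Sirt5-/- livers and 0.427, 1.21 and 3.28 CPM in Sirt5+/+ livers. Its values overlapped, with a log2 change of 0.18 ± 0.66 (SE; edgeR, adjusted p = 0.862), or 1.11 without Sirt5+/+ replicate 3 (edgeR, adjusted p = 0.107), and 40.8% of its words occur in other genes.

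The genes below the filter give a few counts only. Cyp2b10, the classical phenobarbital and CAR target, had 0, 1 and 0 counts in Sirt5-/- livers and 20, 11 and 0 in Sirt5+/+ livers. Cyp2c55, a target of CAR and PXR, had 7, 7 and 8 counts in Sirt5-/- livers and 61, 79 and 7 in Sirt5+/+ livers. For both, Sirt5+/+ replicate 3 looked like the Sirt5-/- livers in unscaled counts. In CPM, Cyp2c55 had 0.408, 0.193 and 0.221 in Sirt5-/- livers and 2.89, 2.82 and 0.917 in Sirt5+/+ livers, so replicate 3 lay above the Sirt5-/- range. Both genes pass the filter when Sirt5+/+ replicate 3 is left out, but only through the Sirt5+/+ libraries where they are high. The difference is therefore given with no test. The female-biased Cyp3a16 and Cyp3a44 had 1 and 7 counts over all libraries. Cyp2a22, Cyp2c39, Cyp2c65, Cyp2d11, Cyp2d34 and Cyp2j8 had at most 9 counts in a Sirt5-/- library and at most 19 in a Sirt5+/+ library. No count was found for Cyp2b9, Cyp2b19, Cyp2b23, Cyp2c66, Cyp2j7, Cyp2j11, Cyp2j12, Cyp2j13, Cyp2t4, Cyp2w1 or Cyp3a57, so a level under the floor of 3 counts in a library is all that can be said of them.

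The genes were also grouped by what they are known for. Of the 7 listed pericentral genes 6 fell, with a median of -1.95. Of the 7 female-biased genes 4 were tested, 1 fell (Cyp2a4) and the other 3 (Cyp2b13, Cyp2c40 and Cyp2c69) did not pass. Their median was -0.75 over the 4 genes, and Sirt5+/+ replicate 3 weighs on it through the 3 that did not pass. Without that library Cyp2a4 stood at -5.33, Cyp2b13 at 1.11, Cyp2c40 at -0.21 and Cyp2c69 at 2.23, so the negative sign of the median rests on it. Of the 6 genes known mainly outside the liver 4 were tested, 1 fell (Cyp2f2) and 1 rose (Cyp2s1). Cyp2f2, listed there for its role in lung, is also the listed periportal gene and averaged 87.0 TPM in Sirt5-/- livers and 574 TPM in Sirt5+/+ livers, so it was abundant in liver. These role lists overlap and were read against 17.1% of all genes lower and 17.4% higher. Across the 33 tested genes the log2 change went with log2 mean TPM, at a Pearson r of -0.53 and a Spearman rho of -0.52. The mean TPM takes in the Sirt5+/+ libraries. A gene higher there gets both a higher mean and a more negative change, so part of that relation was built in. The log2 change did not go with shared sequence (r = -0.03, rho = -0.01). The points are genes from the same 6 libraries, share reads within subfamilies and are not independent, so no p is given.

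Hepatocyte markers fell too, and relative to them the genes' median change was near 0. With the libraries scaled so that the mean of 18 hepatocyte markers was equal, the median log2 change of the 33 genes was -0.08, whereas that of all genes tested was 1.86. On this scale 74.9% of 14781 genes tested were called, 0.480% as lower and 74.5% as higher, and 3 members fell and 2 rose. Cyp2a4 fell by 3.08 (adjusted p = 0.00056), Cyp2c29 by 2.12 (adjusted p = 0.00945) and Cyp2f2 by 1.00 (adjusted p = 0.0407, all edgeR); the Cyp2c29 values overlapped between genotypes. Cyp2s1 rose by 3.61 (edgeR, adjusted p = 0.000572) and Cyp2b13 by 1.94 (edgeR, adjusted p = 0.0385). Cyp2e1 stood at -1.03 ± 0.60 (log2, SE; edgeR, adjusted p = 0.129). The calls of Cyp2a4 and Cyp2s1 held without each library in turn. That of Cyp2c29 was lost without Sirt5-/- replicate 1 (adjusted p = 0.0504, edgeR). That of Cyp2f2 did not hold if replicate 2 or 3 of Sirt5-/-, or 1 or 2 of Sirt5+/+, was left out (adjusted p from 0.103 to 0.183, edgeR), and that of Cyp2b13 when any 1 library but Sirt5+/+ replicate 3 was left out (adjusted p from 0.0628 to 0.133). Without Sirt5+/+ replicate 3, Cyp2d26, Cyp2d40, Cyp2e1 and Cyp2j5 joined the lower genes, against 1.38% of all genes, and 7 were higher against 78.5%, namely Cyp2b13, Cyp2c37, Cyp2c40, Cyp2c54, Cyp2c69, Cyp2j9 and Cyp2s1. Cyp2e1 was then at -1.44 (edgeR, adjusted p = 0.000151).

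**Figure D2:**
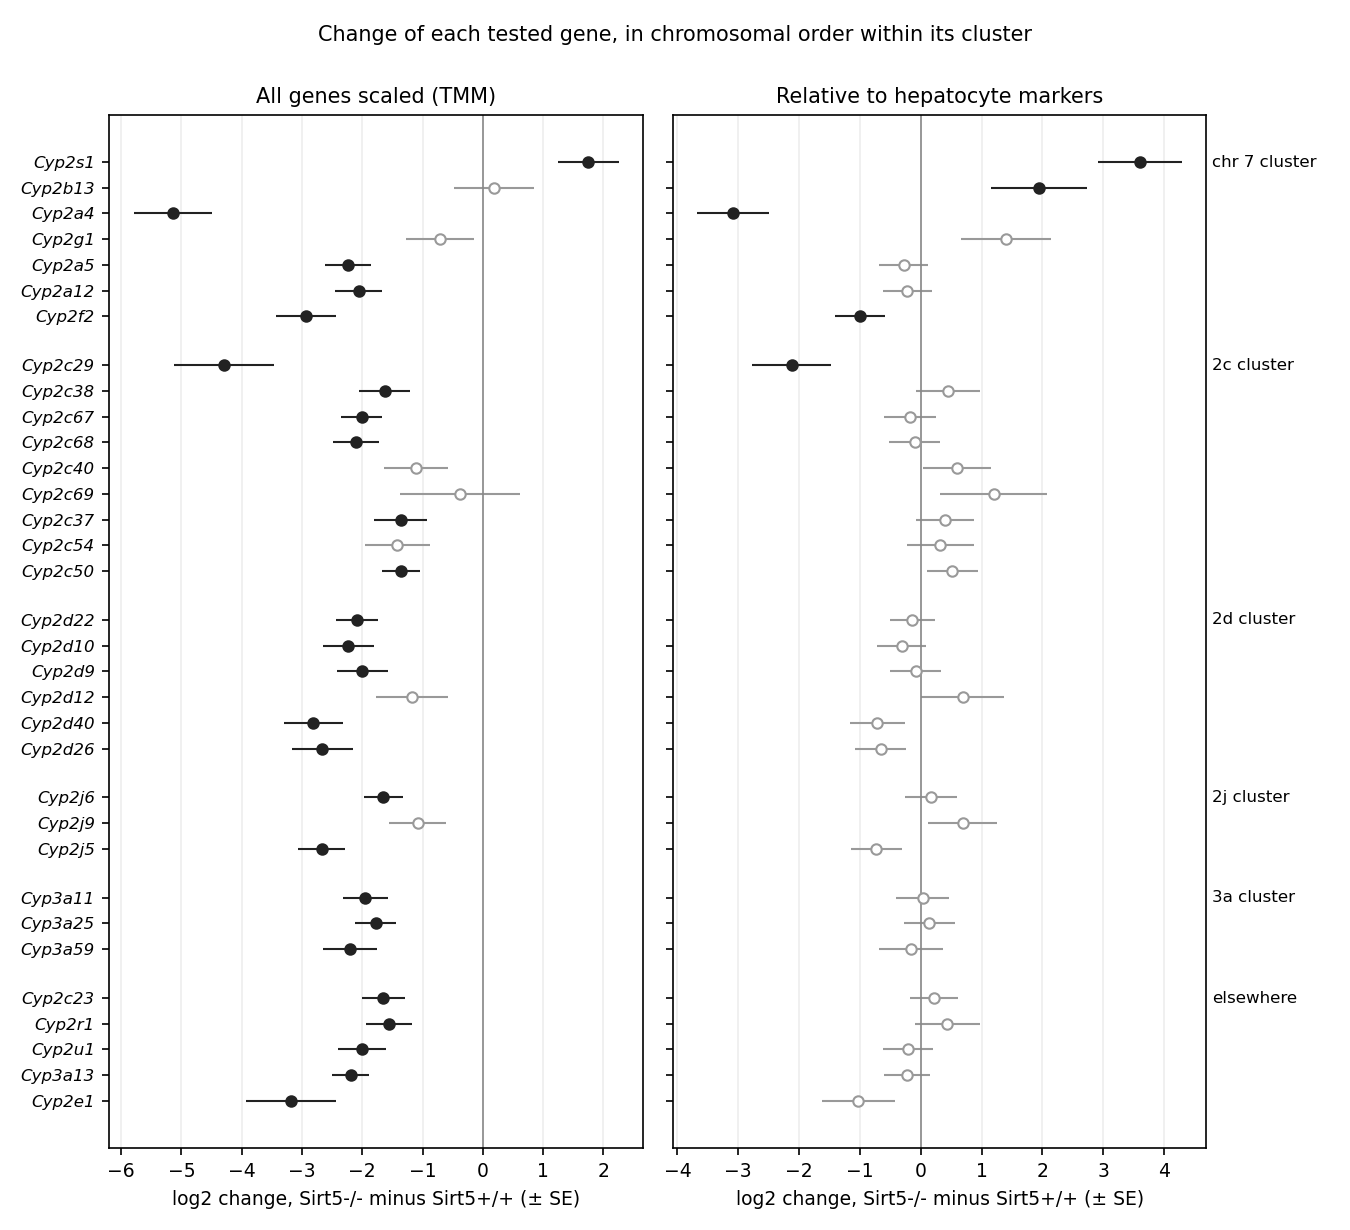
Log2 change (Sirt5-/- minus Sirt5+/+, bars ± SE) of the 33 tested genes in chromosomal order within each cluster, with all genes scaled by TMM on the left and relative to 18 hepatocyte markers on the right; filled points passed an adjusted p of 0.05. On the left 25 genes are filled below 0 and Cyp2s1 above it, and on the right Cyp2a4, Cyp2c29 and Cyp2f2 are filled below 0 and Cyp2s1 and Cyp2b13 above it.

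By position, neighbours in a cluster could differ widely. The cluster on chr7:25802475-27158668 holds 13 of the genes, among them Cyp2s1 at its start, the riser, and Cyp2a4, with the largest fall. In the Cyp2c cluster, chr19:39007019-40113950, the adjoining Cyp2c40, Cyp2c69, Cyp2c37, Cyp2c54 and Cyp2c50 had the 5 least negative log2 changes, from -1.42 to -0.38, of which Cyp2c37 and Cyp2c50 passed the test, and Cyp2c29 had the most negative. Cyp2c69, at -0.38, was at 2.23 without Sirt5+/+ replicate 3. The Cyp2d cluster on chr15:82370527-82794294 ended in its 2 largest falls, Cyp2d40 and Cyp2d26. The Cyp3a cluster on chr5:145345279-146113287 was the most even.

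The make-up of the pool was compared with TPM, which is per length and so allows levels of different genes to be summed. Cyp2e1 made up 8.96, 21.7 and 22.9% of the summed TPM of the 54 genes in Sirt5-/- livers, against 43.4, 37.9 and 12.1% in Sirt5+/+ livers. Sirt5+/+ replicate 3 fell within the Sirt5-/- range, so the groups overlapped. The Cyp2c genes made up 45.6, 36.3 and 37.8% in Sirt5-/- livers and 15.4, 19.0 and 43.5% in Sirt5+/+ livers, with the same library out of place, and Cyp2c50 alone took 19.8, 16.5 and 17.3% in Sirt5-/- livers against 2.87, 3.55 and 16.9% in Sirt5+/+ livers. By counts per kilobase of deposited length the Cyp2c50 share was smaller, at 8.05, 7.46 and 8.11% in Sirt5-/- livers and 2.5, 3.62 and 6.91% in Sirt5+/+ livers. The Cyp2d share, 23.9, 21.9 and 19.7% in Sirt5-/- livers and 23.5, 19.6 and 22.9% in Sirt5+/+ livers, and the Cyp2a share, 10.2, 7.85 and 7.64% in Sirt5-/- livers and 6.61, 9.21 and 9.69% in Sirt5+/+ livers, overlapped between genotypes. The Cyp2b13 share was 0.548, 0.559 and 0.642% in Sirt5-/- livers, against 0.0312, 0.128 and 0.282% in Sirt5+/+ livers, without overlap and without a test. By counts per kilobase of deposited length it was 0.0542, 0.0576 and 0.065% in Sirt5-/- livers and 0.00205, 0.0079 and 0.0331% in Sirt5+/+ livers, so its size depends on the length used. In TPM itself the summed level was 1865, 3137 and 2764 in Sirt5-/- livers and 14037, 12192 and 2281 in Sirt5+/+ livers. TPM is scaled to the library total, which mitochondrial reads share, and on it Sirt5+/+ replicate 3 lay inside the Sirt5-/- range.

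**Figure D3:**
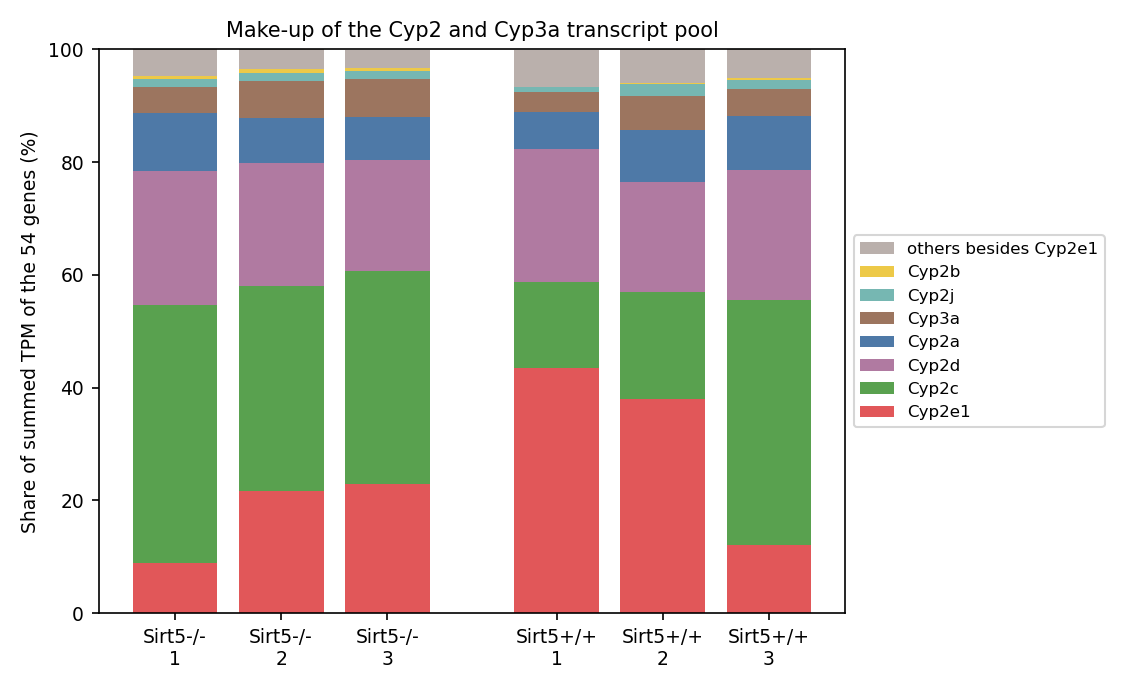
Share (%) of each subfamily, with Cyp2e1 shown apart, in the summed TPM of the 54 genes, 1 bar per liver. Cyp2e1 (bottom) takes 43.4 and 37.9% in Sirt5+/+ replicates 1 and 2 and 8.96 to 22.9% in Sirt5-/- livers, and Sirt5+/+ replicate 3 (12.1%) resembles the Sirt5-/- bars.

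A further quantity that differed was the transcript length implied by the deposited values, that is the ratio of count to TPM, put in bases with genes that have 1 transcript in GENCODE M21. For Cyp2c50 it was 526, 653 and 682 bases in Sirt5-/- livers, against 1560, 1832 and 560 bases in Sirt5+/+ livers. For Cyp3a13 it was 1242, 1335 and 1338 bases in Sirt5-/- livers and 3135, 2932 and 1382 bases in Sirt5+/+ livers. Cyp2a5, Cyp2c69 and Cyp2j6 showed the same order, with Sirt5+/+ replicates 1 and 2 long and the other 4 libraries short. Cyp2a4, Cyp2j5 and Cyp3a11 had nearly the same length everywhere, as with 1841, 1845 and 1860 bases in Sirt5-/- livers and 1807, 1802 and 1834 bases in Sirt5+/+ livers for Cyp2a4. Over 9346 genes with several transcripts the median ratio of implied to deposited length was 0.80, 0.79 and 0.80 in Sirt5-/- livers and 0.84, 0.84 and 0.78 in Sirt5+/+ livers. A short implied length raises TPM for the same count: Cyp2c50 averaged 455 ± 77.4 TPM in Sirt5-/- livers and 407 ± 24.0 TPM in Sirt5+/+ livers (SD, n = 3 each), though its CPM did not overlap and were lower in Sirt5-/- livers. With counts per kilobase of the deposited length the Cyp2c share was 37, 28.8 and 30% in Sirt5-/- livers and 13.8, 17.8 and 36.2% in Sirt5+/+ livers, so the order of the libraries did not rest on the implied length. Which transcripts the quantification used is not given in the sources used here. Cyp2j6 and Cyp3a13 have 1 transcript each in GENCODE M21, though their implied length differed between libraries. Whether the quantification used another transcript set was not tested, while the shared words and the implied lengths rest on M21.

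**Figure D4:**
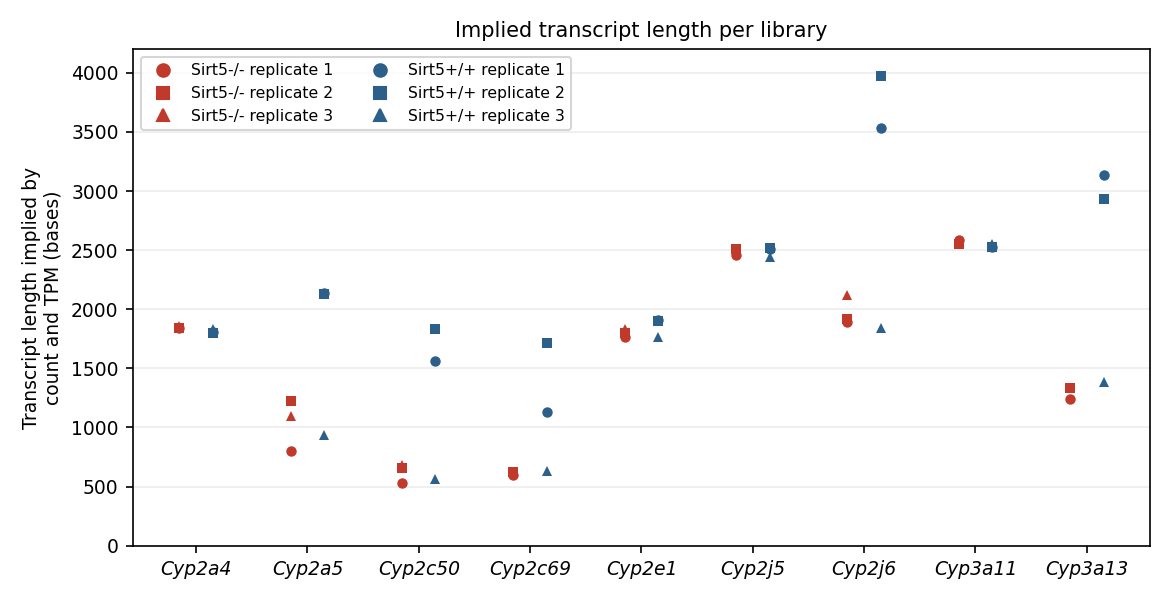
Transcript length implied by count and TPM (bases) for 9 genes in each library, Sirt5-/- in red and Sirt5+/+ in blue. Cyp2a5, Cyp2c50, Cyp2c69, Cyp2j6 and Cyp3a13 are long only in Sirt5+/+ replicates 1 and 2 among these 6 libraries, whereas Cyp2a4, Cyp2j5 and Cyp3a11 hardly move.

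The partners of these enzymes were lower too. Of 18 genes for electron supply and haem, 10 fell and 1 rose, with a median log2 change of -1.19, beside 17.1% of all genes lower and 17.4% higher. Por, the reductase that feeds all microsomal P450 enzymes, had 80.8, 67.6 and 46.8 CPM in Sirt5-/- livers and 378, 237 and 145 CPM in Sirt5+/+ livers, without overlap. It fell by 1.96 ± 0.41 (log2, SE; edgeR, adjusted p = 0.00802). Alas1, the rate-limiting enzyme of haem synthesis, fell by 1.83 ± 0.41 (log2, SE; edgeR, adjusted p = 0.00992), a call lost without Sirt5-/- replicate 2 or 3 (adjusted p = 0.0601 and 0.0579, edgeR). Fech, which inserts the iron, fell by 1.97 ± 0.30 (log2, SE; edgeR, adjusted p = 0.00268). Hmox1, which degrades haem, had 27.5, 34.3 and 41.7 CPM in Sirt5-/- livers and 18.8, 11.8 and 12.3 CPM in Sirt5+/+ livers and rose by 1.27 ± 0.28 (log2, SE; edgeR, adjusted p = 0.00968). Without Sirt5-/- replicate 3 its adjusted p was 0.0537 (edgeR). Macrophage markers, whose cells are rich in Hmox1, were mixed: 5 of 8 rose and 2 fell. Clec4f fell by 3.42 (adjusted p = 0.00401) and Marco by 2.57 (adjusted p = 0.00374, both edgeR), and Vsig4 stood at -1.69 without passing. The summed level of the 8 was 969 to 1979 CPM in Sirt5-/- livers and 292 to 386 CPM in Sirt5+/+ livers. Most of it was Lyz2, at 618, 1099 and 1306 CPM in Sirt5-/- livers and 182, 247 and 179 CPM in Sirt5+/+ livers. The part of macrophages in the Hmox1 level was not tested.

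Of 26 tested transcriptional regulators 18 fell, with a median log2 change of -1.53, again beside 17.1% of all genes lower. PXR (Nr1i2) had 7.52, 8.44 and 4.86 CPM in Sirt5-/- livers and 58.7, 50.3 and 15.1 CPM in Sirt5+/+ livers, apart in all libraries, and fell by 2.58 ± 0.49 (log2, SE; edgeR, adjusted p = 0.00562). CAR (Nr1i3) had 25.4, 27.3 and 25 CPM in Sirt5-/- livers and 99.3, 102 and 80.8 CPM in Sirt5+/+ livers. It fell by 1.86 ± 0.23 (log2, SE; edgeR, adjusted p = 0.00188), though 68.1% of its words lie in Tomm40l on the opposite strand. Rxra, the partner of both receptors, fell by 2.60, Hnf4a, a main hepatocyte regulator, by 1.88, Cebpa by 2.19 and Foxa3 by 2.81. Stat5b, which carries the growth hormone signal behind sex-biased P450 genes, fell by 0.70 ± 0.21 (log2, SE; edgeR, adjusted p = 0.033), a call lost when any 1 library except Sirt5+/+ replicate 3 was left out (adjusted p from 0.0547 to 0.143). With library totals the calls of Por, Alas1, Fech, Hnf4a, Cebpa, Nr1i3 and Stat5b were lost (edgeR, adjusted p from 0.0753 for Cebpa to 0.954 for Stat5b). Relative to the hepatocyte markers 0 genes of both lists fell under edgeR at an adjusted p of 0.05, 0 under limma-voom, and 0 and 1 at an unadjusted edgeR p of 0.05. This stands beside 0.480% of all genes lower on that scale, and 7 of the 18 and 8 of the 26 genes rose on it, beside 74.5% of all genes. On that scale Hnf4a stood at -0.01 and Por at 0.01.

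Most of the other xenobiotic and fatty acid P450 genes tested were lower too. Cyp1a2, which oxidises caffeine, had 303, 193 and 141 CPM in Sirt5-/- livers and 1580, 1029 and 872 CPM in Sirt5+/+ livers and fell by 2.45 ± 0.44 (log2, SE; edgeR, adjusted p = 0.00468). Cyp1a1, the dioxin-inducible gene, fell by 3.14 and Cyp1b1 did not pass, at a log2 change of 0.49 (edgeR, adjusted p = 0.552). Of 12 tested Cyp4 genes, which hydroxylate fatty acids at the chain end, 9 fell (17.1% of all genes did), with a median log2 change of -1.96, beside -2.0 for the Cyp2 and Cyp3a genes. Cyp4a14 fell by 3.85 ± 0.51 (log2, SE; edgeR, adjusted p = 0.00198) and Cyp4f14 fell by 3.32 ± 0.56 (log2, SE; edgeR, adjusted p = 0.00371), and both were also lower relative to hepatocyte markers, at -1.83 and -1.24. Cyp4f16 stood at 1.26 ± 0.43 (log2, SE; edgeR, adjusted p = 0.0502), and its adjusted p ran from 0.0273 to 0.196 leaving out each library (edgeR). Cyp4f18 was also above 0 without passing, at 1.52 ± 0.85 (log2, SE; edgeR, adjusted p = 0.2), while Cyp4f17 stood at -0.77 (edgeR, adjusted p = 0.168).

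By the authors' deposited table, 26 of the 33 tested genes were lower and 1 was higher at an adjusted p under 0.05. The 26 genes called here had the same direction and call in the authors' deposited table. Both sets of calls rest on the same 6 libraries, so the match is not independent support. The share of all genes called in the authors' table is not given here.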

How the data were processed

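RNA from 6 livers was measured. HISAT2 2.1.0, RSEM 1.3.1 and DESeq2 1.24.0 are listed in the submitters' processing notes; their roles, options and the genome build are not given in the sources used here. The deposited expected counts (estimated counts per gene) were rounded to whole numbers. TPM were used as deposited by the authors, for the make-up and the implied length. The authors' deposited log2 fold changes and p-values served only to compare calls. Gene IDs match GENCODE M21, so coordinates are on GRCm38.

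Genes passed filterByExpr (minimum count 10, minimum total 15), were scaled with TMM factors of 0.396 to 1.676 and tested with the quasi-likelihood F test of edgeR 4.0.16, with genotype as the only term. P-values were adjusted by Benjamini-Hochberg over 14799 genes (threshold 0.05). Each SE was taken from the log2 change and its F statistic. A second fit scaled libraries to equal mean log2 counts (offset 0.5) of 18 hepatocyte markers, which were left out of its counts of calls; 1 further listed marker was not matched by symbol. Shared sequence was counted in 31-base words of GENCODE M21 transcripts. Promoters are from RefSeq, and those on chromosome 18 were left out of the motif counts. Implied lengths used 287 genes with 1 transcript, for members with at least 20 counts in every library. The code was tested on simulated data.

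Per-library values are given for the member with the highest mean TPM of each subfamily, tested members outside the large subfamilies, the 5 largest falls, the 3 least negative or highest changes, any riser, and members whose call depends on 1 library. Cyp2a5, Cyp2c67, Cyp2c40, Cyp2b10 and Cyp2c55 were added after their values were seen. The members, lists, markers and this rule were chosen with earlier results of these data known.

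Alternatives were size factors from DESeq2, library totals, upper quartiles, keeping every counted gene, requiring 1 CPM in 3 libraries with a mean count of 50, the DESeq2 1.42.0 and limma-voom (3.58.1) tests, a replicate block, other thresholds, and leaving out single libraries, mitochondrial genes with their nuclear copies, or both Sirt5-/- replicate 1 and Sirt5+/+ replicate 3, which had the most mitochondrial reads of their genotypes. Counts per deposited length, and pair ratios without each library, were added after seeing the data.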

Additional observations from a re-analysis of the deposited data

How the results depend on the processing

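The count of 25 lower members was 7 with library totals and within 1.5 times of 25 under the other alternatives run (19 to 26 leaving out each library). The count of 1 higher member was 0 with the replicate block and at a threshold of 0.01, 2 without the 2 libraries richest in mitochondrial reads (Sirt5-/- replicate 1 and Sirt5+/+ replicate 3), and 0 to 2 leaving out each library. Relative to hepatocyte markers, the count of 3 lower members was 6 without the richest mitochondrial libraries and 2 to 8 leaving out each library. The count of 2 higher members was 1 with the stricter filter, 5 with limma-voom, 9 without the richest mitochondrial libraries, 1 at a threshold of 0.01 and 1 to 7 leaving out each library. Over all genes, 2525 lower became 325 with library totals, 1665 with the replicate block, 1181 at 0.01 and 1090 to 3656 leaving out each library. The 2575 higher became 3904 without the richest mitochondrial libraries, 1415 at 0.01 and 1441 to 3991 leaving out each library. The cause was not tested.

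Directions turned for 3 members without a call. Leaving out each library moved Cyp2b13 between -0.29 and 1.11, at -0.29 without Sirt5+/+ replicate 1 and -0.01 without replicate 2. Cyp2c69 ran from -0.89 to 2.23 leaving out each library, and was at 0.94 with library totals, 0.91 with limma-voom, 0.96 with the replicate block, 2.23 without Sirt5+/+ replicate 3 and 1.72 without the richest mitochondrial libraries. Cyp2g1 was at 0.02 with library totals. With counts per deposited length the difference in the Cyp2b share was 0.0426 percentage points in place of 0.434, and in the Cyp2d share 2.83 in place of -0.156.

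Replicates with the same number did not deviate together (correlations of -0.21, 0.15 and -0.22). Such correlations, from 3 samples per genotype, cannot show whether equal numbers mark a pairing or a batch. With the replicate block 22 members were lower and Cyp2c37, Cyp2c38, Cyp2e1 and Cyp2s1 lost their call; 0 of 3 numbers matched best with itself. Relative to hepatocyte markers the block ended the Cyp2c29 call (-2.02, edgeR adjusted p = 0.0823). Some counts with libraries left out, without a filter or without mitochondrial genes include Cyp2b10 or Cyp2c55, which passed a filter only through the Sirt5+/+ libraries where they are high. For the 11 members with no count, depth limits what can be said to a level under 0.0827 to 0.393 CPM, the worth of 3 counts.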
